A study of Homo sapiens with 2 samples.

Results

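The phagocyte NADPH oxidase is the enzyme with which neutrophils and other phagocytes make superoxide to kill ingested microbes. Its core is a flavocytochrome in the membrane, made of the catalytic subunit gp91phox (gene CYBB) and its partner p22phox (CYBA). In resting cells the other parts wait in the cytosol, among them the organiser p47phox (NCF1) and the adaptor p40phox (NCF4), and the enzyme is switched on when they and a Rac GTPase (RAC1 or, above all in neutrophils, RAC2) move to the membrane. Loss of CYBB, CYBA, NCF1 or NCF4 causes chronic granulomatous disease, and loss of RAC2 function causes a neutrophil immunodeficiency.

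The 6 genes CYBB, CYBA, NCF1, NCF4, RAC1 and RAC2 were chosen by name out of 19974 protein-coding genes, and the gene table listed each of the 6. They were examined for binding of LDB1, a nuclear protein without a DNA-binding domain that pairs with itself and bridges LMO proteins, GATA factors and basic helix-loop-helix factors between enhancers and promoters. The study made 1 CUT&Tag library with an LDB1 antibody and 1 with IgG, a non-specific antibody, both from untreated NB4 cells; CUT&Tag uses an antibody to bring the Tn5 transposase to its target, and the transposase cuts and tags the DNA beside it. NB4 is a human acute promyelocytic leukaemia line that carries the PML::RARA fusion, and its cells are blocked at the promyelocyte stage, so they are a model of immature rather than mature neutrophils. Neither antibody had a replicate, the values used were the deposited LDB1 peaks, and the IgG library was not analysed here. No value below therefore has a replicate check or a test.

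The list held 53742 LDB1 peaks, and the 52765 on the autosomes and chromosome X were used. Their median width was 550 bp (quartiles 408 and 816 bp). Only positions and widths were used, so the depth and the strength of binding were unknown, and background in open chromatin could not be told apart from LDB1 binding. A peak was counted for a gene when its midpoint fell inside the gene or up to 10 kb outside, and a wider window of 50 kb was used as well. Coordinates are hg38, counted from 1.

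LDB1 peaks were unevenly spread over the oxidase genes. RAC1 had 10 peaks inside it or within 10 kb, CYBA had 7, NCF1 had 5 and RAC2 had 4, while CYBB and NCF4 had none within 10 kb or within 50 kb. That is 4 of 6 genes with a peak, beside 70.1% of all protein-coding genes, so the share was near the background. On the chromosomes of the members the share of protein-coding genes was 80.6% for chromosome 7, 77.4% for chromosome 16, 78.0% for chromosome 22 and 61.7% for chromosome X. The same 4 genes had a peak inside the gene body, beside 54.5% of all protein-coding genes, and a peak within 50 kb, beside 86.1%. The median was 4.5 peaks per gene within 10 kb, beside 1 over all protein-coding genes, and 7 within 50 kb, beside 3. A peak midpoint within 1 kb of a gene end was found at RAC1 and RAC2, 2 of 6 genes, beside 37.6% of all protein-coding genes.

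**Figure D1:**
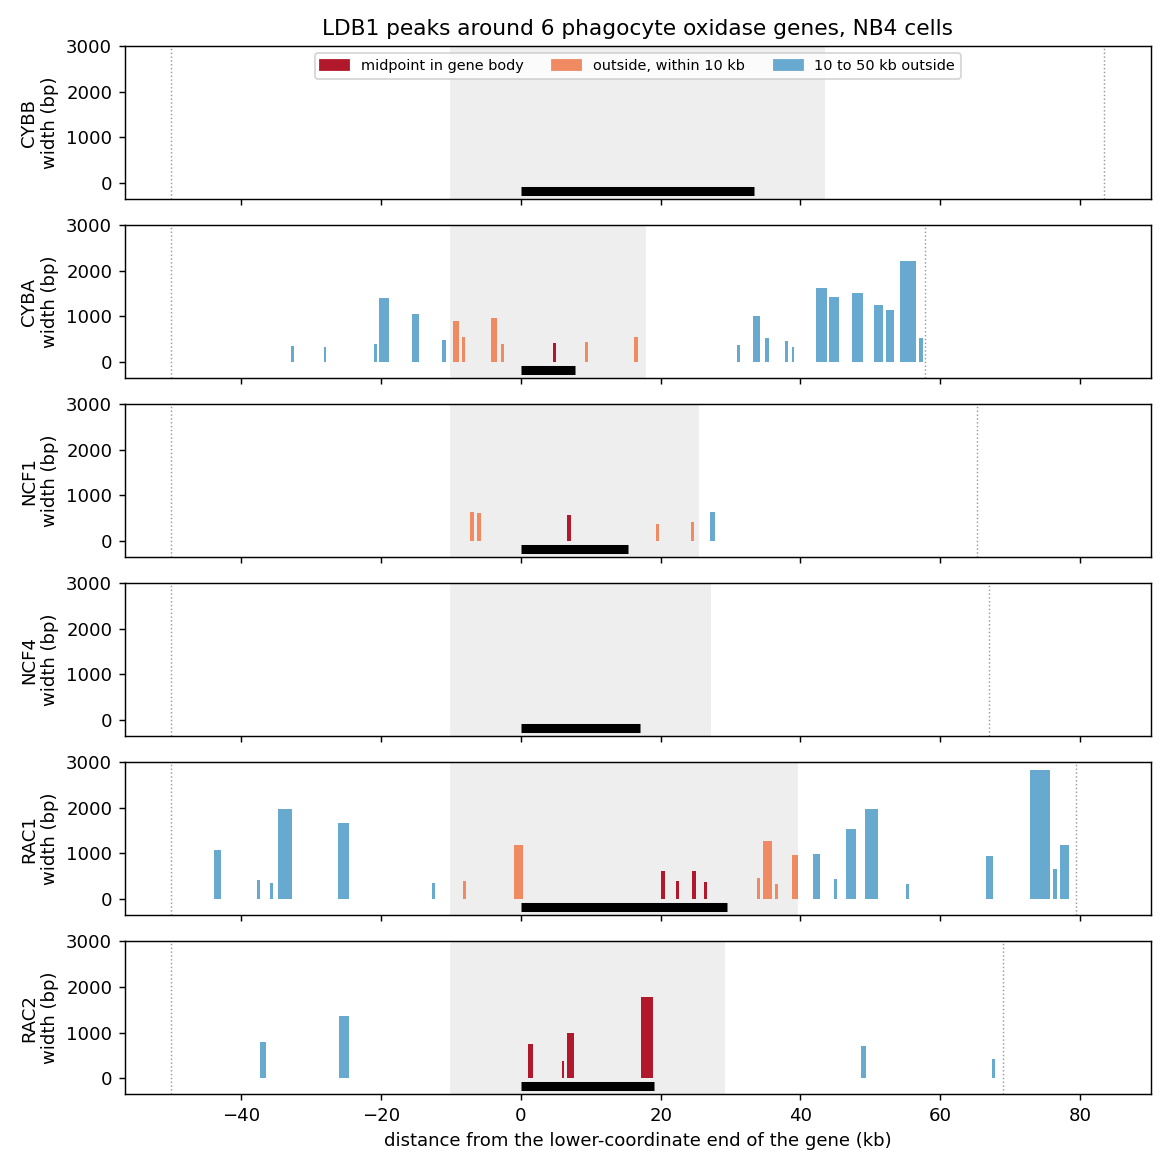
LDB1 peaks around the 6 genes in the 1 LDB1 library. The x axis is the distance from the lower-coordinate end of each gene in kb, bar height and bar width are the peak width in bp and kb, the black line is the gene body, the grey area reaches 10 kb and the dotted lines 50 kb beyond the gene. CYBB and NCF4 are empty, RAC2 has its 4 peaks inside the gene, and CYBA and RAC1 lie between wider peaks of their neighbours.

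The 26 peaks counted within 10 kb of the members were 26 distinct peaks, so no peak was shared between members. Their widths ran from 337 to 1778 bp with a median of 566.5 bp, close to the 550 bp of all peaks. Of the 26, 3 were at least 1 kb wide, and 16.5% of all peaks were. Inside the gene bodies lay 10 of the 26. A further protein-coding gene lay within 10 kb of 18 of the 26, and these peaks could count for that gene as well.

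The RefSeq promoter table (GRCh38.p14) held 3 of the 6 genes. The 250 bases before the start of each of these 3 are shown, and no LDB1 peak overlapped any of them. Over the 15812 protein-coding genes in that table, a peak overlapped this stretch in 22.8%. The 3 genes do not stand for all 6, since RAC1, which that table did not list, had a peak across its start, as described below. Capitals mark GATA (either strand), the core bound by GATA factors, and CANNTG, the E-box bound by basic helix-loop-helix dimers; both kinds of factor are partners of LDB1.
CYBB: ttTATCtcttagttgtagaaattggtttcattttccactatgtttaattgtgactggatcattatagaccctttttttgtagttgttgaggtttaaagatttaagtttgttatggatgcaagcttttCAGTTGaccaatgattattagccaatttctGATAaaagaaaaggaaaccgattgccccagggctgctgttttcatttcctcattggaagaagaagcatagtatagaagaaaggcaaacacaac
CYBA: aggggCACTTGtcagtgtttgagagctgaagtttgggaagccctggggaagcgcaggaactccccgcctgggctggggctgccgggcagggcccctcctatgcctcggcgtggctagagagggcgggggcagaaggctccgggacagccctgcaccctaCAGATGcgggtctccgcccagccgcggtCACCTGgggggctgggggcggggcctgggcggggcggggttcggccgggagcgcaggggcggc
NCF1: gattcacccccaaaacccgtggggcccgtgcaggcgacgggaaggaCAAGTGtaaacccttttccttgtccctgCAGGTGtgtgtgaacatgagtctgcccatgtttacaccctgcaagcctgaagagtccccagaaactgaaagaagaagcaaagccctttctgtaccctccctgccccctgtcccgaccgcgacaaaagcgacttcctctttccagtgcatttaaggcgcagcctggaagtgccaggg
These are chrX:37779809-37780058 on the plus strand, chr16:88651054-88651303 on the minus strand and chr7:74773761-74774010 on the plus strand. The CYBB sequence held 2 GATA matches and 1 E-box match. Its E-box began 123 bases and its nearer GATA match 93 bases before the gene start. It also held 4 matches to CCAAT and 1 to GAGGAA, the core bound by PU.1, the myeloid ETS factor. CYBA held 3 E-box matches and no match to GATA, CCAAT or GAGGAA, and NCF1 held 2 E-box matches and 1 match to GAGGAA. Matches were counted on both strands, and the GAGGAA match of CYBB, 48 bases before the start, stood next to a CCAAT match that began at 42. Over all 15812 promoters, GATA occurred in 39.7%, CANNTG in 57.8%, CCAAT in 34.4% and GAGGAA in 23.5%, so each of these motifs is common in such windows, and no 2 of them overlapped in the 3 sequences. The 3 sequences differed in base composition, with 34.0% G and C at CYBB, 73.6% at CYBA and 56.4% at NCF1, where the median promoter had 62.4%.

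CYBB, the gene of the catalytic subunit, lay in a stretch without LDB1 peaks. It spans 33.4 kb on chromosome X (37780059 to 37813461). The nearest peak midpoint on its lower side was 72.5 kb away, in a 782 bp peak inside XK (37707141 to 37707922). On the other side the nearest was 92.3 kb away, in a 487 bp peak inside SYTL5 (37905558 to 37906044). The stretch between these peaks was 198 kb long and held 1 other whole protein-coding gene, DYNLT3, which encodes a dynein light chain. A nearest peak at least as far away was found for 10.4% of all protein-coding genes. The region was poor in peaks, with 21 within 1 Mb of the gene, where the median protein-coding gene had 49.

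CYBA, the gene of p22phox, stood in a region dense in peaks and carried 1 in its own short body, where the median protein-coding gene also had 1. It spans 7.76 kb on chromosome 16 (88643289 to 88651053) and is transcribed towards lower coordinates. The peak inside it was 408 bp wide (88647847 to 88648254), no wider than the lowest quartile of all peaks, and its midpoint lay 3003 bp from the gene start. The nearest peak outside the start lay 1354 bp away, was 442 bp wide (88652407 to 88652848) and stood inside MVD, a gene of cholesterol synthesis. MVD also held a 557 bp peak (88659537 to 88660093). Below the other end of CYBA lay peaks of 388, 971, 553 and 889 bp, of which the 971 bp peak stood inside IL17C, a cytokine gene, and the 553 bp peak had its midpoint in a long non-coding RNA gene. All 7 peaks lay within 10 kb of a further protein-coding gene.

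The 7 peaks at CYBA belonged to a single run of 13 peaks, each 10 kb or less from the next, that covered 49.6 kb from ZC3H18 to MVD. Above that run came a gap and then another run of 21 peaks over 71.3 kb, which began beside SNAI3, the gene of a zinc finger repressor, and went on beyond RNF166. These outer peaks were wider. The widest within 50 kb of CYBA was 2214 bp, inside RNF166 (88697589 to 88699802), against 971 bp within 10 kb. In all 25 peaks lay within 50 kb, a number reached by 2.62% of protein-coding genes, and 309 lay within 1 Mb, reached by 0.926%. CYBA lies near the end of the long arm of chromosome 16, and the peaks counted here are a small part of those at that chromosome end.

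NCF1, the gene of the organiser p47phox, had 5 narrow peaks, and all 5 are uncertain because NCF1 has near-identical copies on the same chromosome. It spans 15.3 kb on chromosome 7 (74774011 to 74789315), and 1 peak of 576 bp lay inside it (74780548 to 74781123). Outside its start lay peaks of 616 and 627 bp, with midpoints 5974 and 6994 bp away. Outside its other end lay peaks of 365 and 417 bp, with midpoints 4256 and 9279 bp away, the second inside GTF2IRD2. No peak was wider than 642 bp even within 50 kb, and neither end had a peak within 1 kb.

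The copies NCF1B and NCF1C are transcribed pseudogenes of 15.3 and 15.4 kb. NCF1B had 1 peak within 10 kb and none in its body, and NCF1C had 4 within 10 kb, of which 2 of 503 and 727 bp lay in its body. Each of the 3 has a gene of the GTF2IRD2 family next to it, which for NCF1C lies on the side of lower coordinates and for NCF1 and NCF1B on the side of higher coordinates. Read from the end that faces away from that neighbour, a peak midpoint stood 6994 bp outside NCF1, 7154 bp outside NCF1B and 7168 bp outside NCF1C. Beyond the end that faces the neighbour, a midpoint stood 12120 bp from NCF1, 11994 bp from NCF1B and 12171 bp from NCF1C. Of the 6 peaks within 50 kb of NCF1, these 2 had a counterpart within 500 bp at both copies, and the other 4, the peak inside NCF1 among them, had a counterpart at neither. The 500 bp limit was chosen after the positions were seen. How reads that align to several places were handled is not given in the sources used here, so a peak at 1 copy may hold reads from another, which was not tested.

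**Figure D2:**
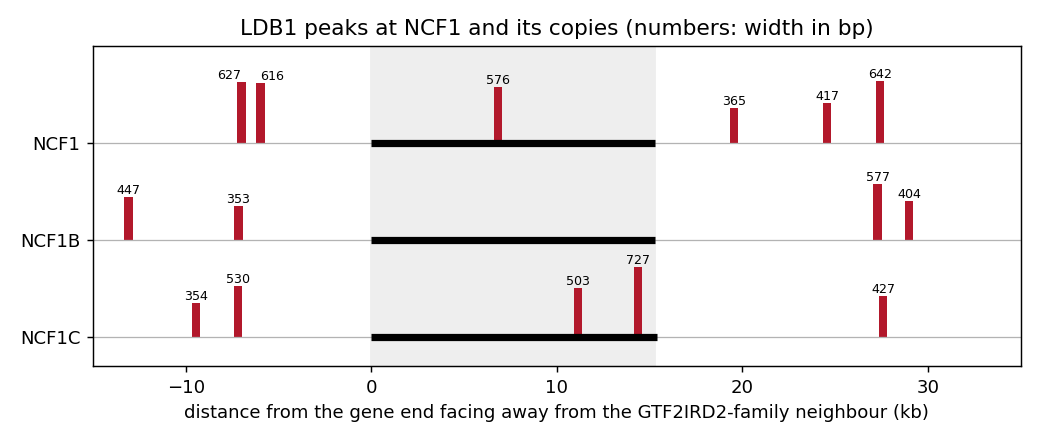
LDB1 peaks at NCF1, NCF1B and NCF1C. The x axis is the distance in kb from the gene end that faces away from the GTF2IRD2-family neighbour, black lines are the genes (grey area, 15.3 kb), and bar height and the number above each bar are the peak width in bp. Peaks stand at about the same place to the left of all 3 genes (widths 627, 353 and 530 bp) and to the right of all 3 (642, 577 and 427 bp), while the peaks inside the genes do not line up.

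NCF4, the gene of p40phox, had no LDB1 peak within 50 kb, although its region was not poor in peaks. It spans 17.0 kb on chromosome 22 (36861006 to 36878015). The nearest midpoint was 51.1 kb above it, just beyond the 50 kb limit, in a 381 bp peak inside CSF2RB (36928959 to 36929339), the gene of the shared receptor chain for GM-CSF, IL-3 and IL-5. On the lower side the next peak was 357 kb away, 591 bp wide and inside FOXRED2 (36504148 to 36504738). The stretch between these peaks was 424 kb long, and of the 52742 gaps between neighbouring peaks 2.3% were at least as long. It held 4 other whole protein-coding genes, EIF3D, CACNG2, IFT27 and PVALB, so the absence was not particular to NCF4. Within 1 Mb of NCF4 lay 108 peaks, above the median of 49 over all protein-coding genes. A nearest peak at least as far away as that of NCF4 was found for 13.7% of all protein-coding genes.

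RAC1, the gene of the Rac GTPase found in most cells, had the most peaks of the 6 genes within 10 kb. Within 50 kb it had as many as CYBA, and inside the gene as many as RAC2. It spans 29.4 kb on chromosome 7 (6374527 to 6403967), and as background it is transcribed towards higher coordinates, since the promoter table did not list it. A peak of 1188 bp (6373596 to 6374783) reached across its start, with 257 bases inside the gene and the midpoint 338 bp outside. Peaks at least as wide made up 11.0% of all peaks. Inside the gene lay 4 narrower peaks of 624, 395, 626 and 368 bp (6394566 to 6401154 from the first to the last). All 4 were in the part of the gene far from the start, the nearest of them 20.35 kb from it. One more peak of 388 bp lay 8108 bp before the start.

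The remaining 4 of the 10 peaks at RAC1 lay beyond its other end, at or inside DAGLB, the gene of a diacylglycerol lipase. They were 469, 1276, 337 and 967 bp wide. The 1276 bp peak (6409209 to 6410484) was the widest counted for RAC1 within 10 kb and lay 5879 bp outside it, so the single widest peak of that window lay at the neighbour. The 4 peaks inside RAC1 and those at DAGLB formed a single run of 13 peaks over 35.5 kb, while the peak at the start of RAC1 belonged to a separate run of 3. Of the 10 peaks, 6 lay within 10 kb of DAGLB as well. Within 50 kb lay 25 peaks, the widest of 2815 bp (6447343 to 6450157) across the far end of DAGLB. RAC1 lies near the start of chromosome 7, a region very rich in peaks, and 248 lay within 1 Mb of it, a number reached by 2.56% of protein-coding genes.

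RAC2, the gene of the Rac GTPase of blood cells, had fewer peaks than RAC1, but all 4 lay inside its body. It spans 19.0 kb on chromosome 22 (37225270 to 37244269), and as background it is transcribed towards lower coordinates, since the promoter table did not list it. The widest of the 4, and of all 26 peaks counted within 10 kb of the oxidase genes, was 1778 bp wide (37242414 to 37244191). It ended 78 bp inside the gene's upper end, where transcription starts, and its midpoint lay 967 bp from that end. Peaks at least as wide made up 3.85% of all peaks. The others were 992 bp (37231851 to 37232842), 372 bp (37231110 to 37231481) and 752 bp wide (37226242 to 37226993).

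Together the 4 peaks covered 20.5% of the RAC2 body, a share reached by 7.63% of protein-coding genes. RAC1 had 7.71% of its body covered, CYBA 5.25% and NCF1 3.76%, and the median protein-coding gene had 0.547%. The 4 peaks of RAC2 stood alone. No other peak lay within 10 kb, and the next ones were 25.3 kb below, at the end of C1QTNF6 (1369 bp wide), and 30.0 kb above, at 697 bp. Only 1 of the 4, the 752 bp peak, lay within 10 kb of a further protein-coding gene, SSTR3, a somatostatin receptor gene. RAC2 and NCF4 lie 347 kb apart on the same chromosome arm, and 8 peaks lay within 50 kb of RAC2 and none within 50 kb of NCF4.

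Several peaks lay close to the limit of a window. Just inside and just outside 10 kb, the nearest midpoints were 9.34 and 11.0 kb from CYBA, 9.28 and 12.1 kb from NCF1, and 9.79 and 12.5 kb from RAC1. At 50 kb they were 49.5 and 55.4 kb from CYBA, 48.3 and 50.8 kb from RAC1, and 48.6 and 52.2 kb from RAC2.

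**Figure D3:**
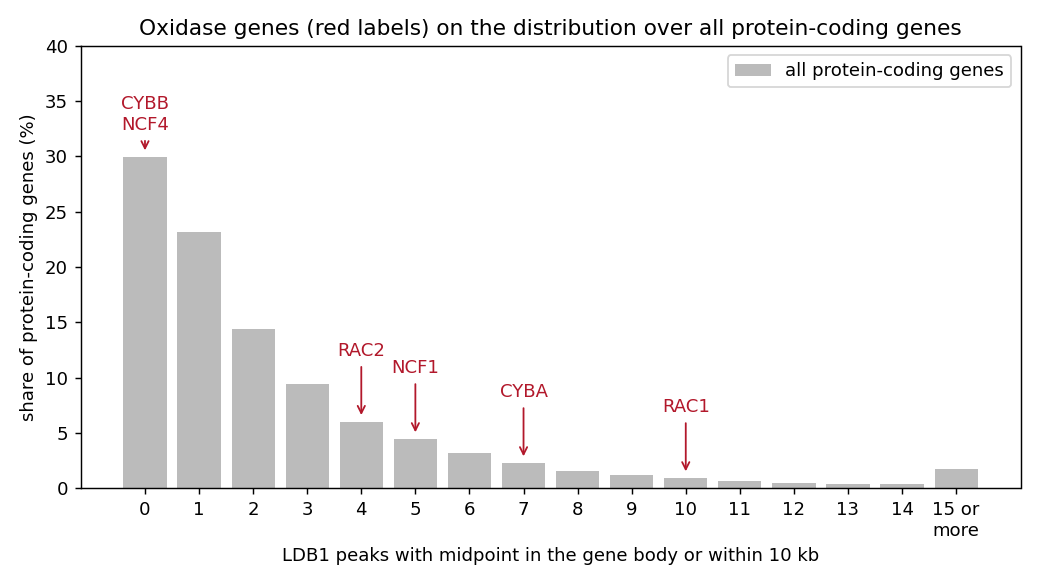
Number of LDB1 peaks whose midpoint fell inside a gene or up to 10 kb outside it (x axis) and the share of the 19974 protein-coding genes with that number (y axis, percent, grey bars). Red labels place CYBB and NCF4 at 0, RAC2 at 4, NCF1 at 5, CYBA at 7 and RAC1 at 10.

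The 4 genes with peaks lay in regions with more peaks than usual, from 138 within 1 Mb at RAC2 and 148 at NCF1 to 309 at CYBA, where the median protein-coding gene had 49. At least 10 peaks within 10 kb, the count of RAC1, were found at 4.49% of protein-coding genes, at least 7 (CYBA) at 9.54%, at least 5 (NCF1) at 17.1% and at least 4 (RAC2) at 23.1%. Among protein-coding genes of 0.5 to 2 times the length of the gene in question, the shares were 4.61% for RAC1, 5.11% for CYBA, 16.6% for NCF1 and 23.1% for RAC2. In the window of 10 kb RAC1 had 202 peaks per Mb, against 122 per Mb within 1 Mb of it. CYBA had 252 per Mb, against 154 in its region. NCF1 had 142, against 73.4, and RAC2 had 103, against 68.4.

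At the density of the region, 6.04 peaks would lie in the 10 kb window of RAC1, 4.27 in that of CYBA, 2.59 in that of NCF1 and 2.67 in that of RAC2. The observed counts were 1.66, 1.64, 1.93 and 1.5 times these, where the median over the 19894 protein-coding genes with any peak within 1 Mb was 0.963. Ratios as high were common, and were reached by 33.6, 34.0, 28.9 and 37.0% of those genes. For CYBB the regional density gave 0.552 peaks and for NCF4 1.98, and none was found. Why these regions differ in density was not tested.

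**Figure D4:**
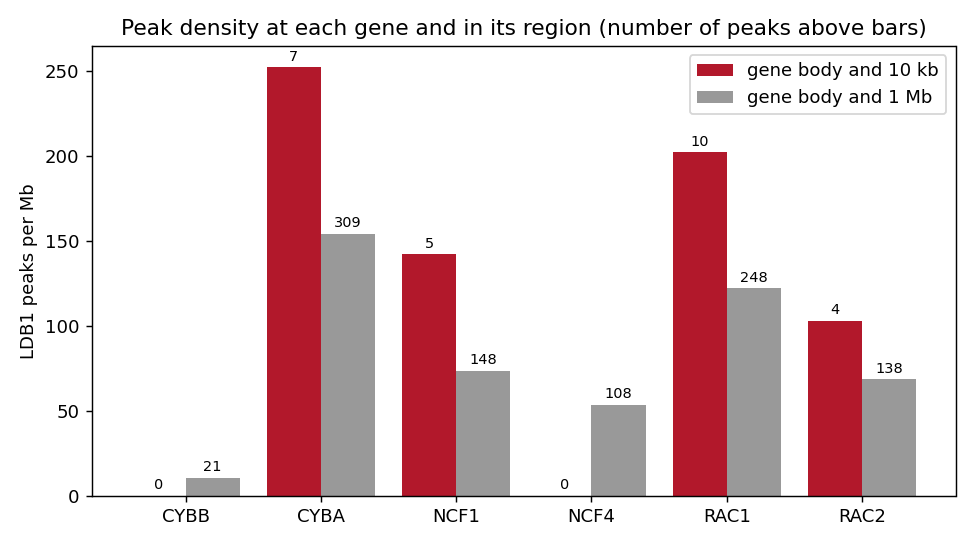
LDB1 peaks per Mb (y axis) in each oxidase gene with its flanks of 10 kb (red) and of 1 Mb (grey), with the number of peaks above each bar. The red bar exceeds the grey bar at CYBA, NCF1, RAC1 and RAC2, and is at 0 for CYBB and NCF4, whose regions held 21 and 108 peaks.

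Most other genes of the oxidase and Rac pathway had an LDB1 peak nearby. Of 31 genes for other NADPH oxidases and their partners, Rac regulators, activating kinases and enzymes that handle oxygen radicals, 25 (80.6%) had a peak within 10 kb, beside 70.1% of all protein-coding genes. In the gene body 23 of the 31 (74.2%) had one, beside 54.5%, and with the widest 25% of peaks 18 (58.1%) had one within 10 kb, beside 34.9%. Within 50 kb 26 of the 31 had one, beside 86.1% of all protein-coding genes, so in that window the share was not above the background. The median was 2 peaks within 10 kb, beside 1, and 4 within 50 kb, beside 3. The 31 genes had a median length of 35.6 kb, beside 24.2 kb, and the part of length in these shares was not tested. At a gene end 16 of the 31 (51.6%) had a peak, beside 37.6%. VAV2, an exchange factor that loads Rac with GTP, had 18 peaks over its 230 kb, with the widest at 2010 bp. PRKCD, a protein kinase C that phosphorylates p47phox, had 9 peaks. PRKCA had 7 peaks (widest 1629 bp), and PRKCB had its widest at 1599 bp. VAV1, the blood cell member of the VAV family, had its widest at 1685 bp.

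CYBC1, which encodes a chaperone that the CYBB and CYBA proteins need, had 8 peaks, the widest of 2210 bp, in a region with 246 peaks within 1 Mb. DUOX1, the gene of a dual oxidase of epithelia, had 7. DUOX2, DUOXA1 and DUOXA2 lie next to it, and some peaks there were counted for more than 1 of these neighbouring genes. A total of 6 of the 31 genes had none within 10 kb. Among them were NOX1, NOX3 and NOX4, which encode relatives of gp91phox of other tissues, PREX1, a Rac exchange factor of neutrophils, and ARHGDIB. NOX1, NOX3 and NOX4 lay in regions poor in peaks, with 20, 20 and 10 within 1 Mb, as did PREX1 with 15 and ARHGDIB with 7. PAK1, which encodes a kinase activated by Rac and was named after its value was seen, had no peak within 50 kb but 89 within 1 Mb, above the median of 49.

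**Figure D5:**
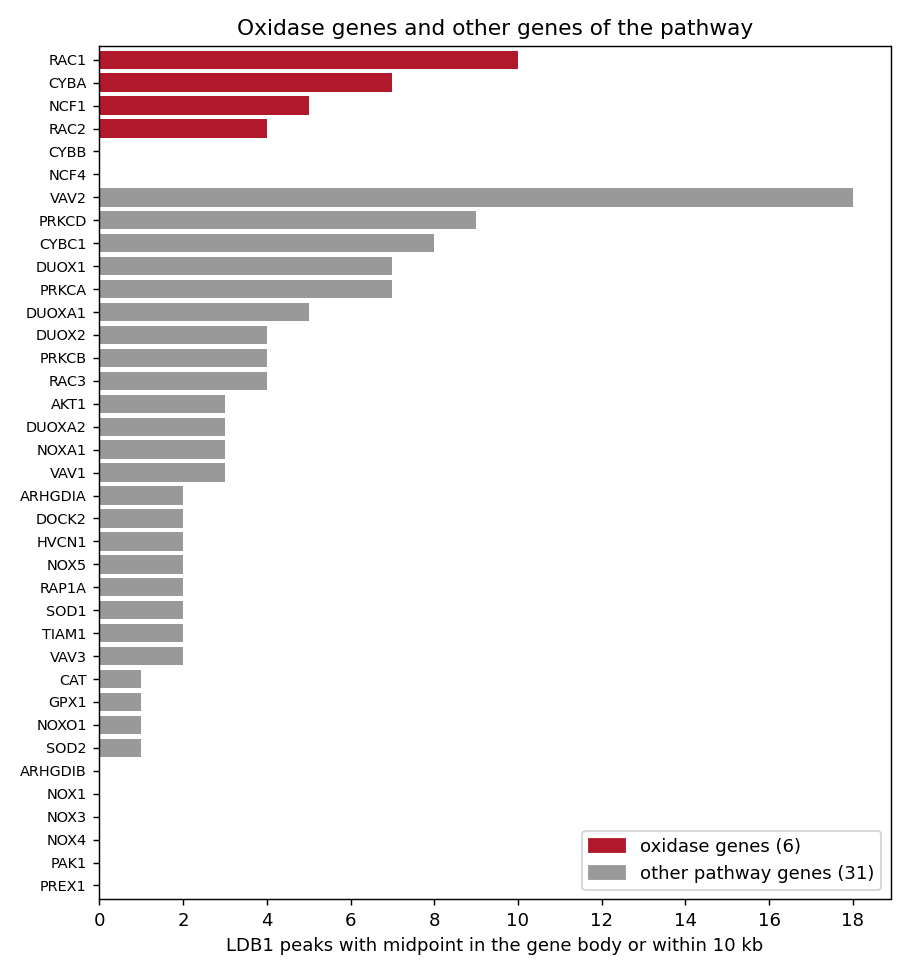
Number of LDB1 peaks whose midpoint fell inside a gene or up to 10 kb outside it (x axis) for the 6 oxidase genes (red) and 31 other genes of the pathway (grey). RAC1 has the most of the oxidase genes in this window with 10, VAV2 the most of the others with 18, and CYBB, NCF4 and 6 of the others have none.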

How the data were processed

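LDB1 binding was mapped by CUT&Tag in NB4 cells. The authors deposited the chromosome, start, end and length in bp of each LDB1 peak, per the file headers. Both ends of a peak were taken as inclusive and counted from 1, since length equalled end minus start plus 1 in each of the 53742 rows. Per the submitters' processing notes, the build was hg38 and the tools named were Bowtie2 2.4.1 and MACS2 2.0.10. Thresholds, the treatment of duplicate and multiply aligned reads and any use of the IgG library in peak calling are not given here. Peak number and width rise with depth, which was unknown, and a looser threshold.

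Peak midpoints were assigned to genes of RefSeq GRCh38.p14 with Python 3.11.15, pandas 2.3.3 and numpy 2.4.6, and the counting was tested on simulated data. The regional density used 1 Mb to either side of each gene, and peaks 10 kb or less apart formed a run. With 1 library per antibody no test was made. The 977 peaks off chromosomes 1 to 22 and X were left out. Alternatives were the widest 50% or 25% of the peaks, any overlap in place of midpoints, other windows, and leaving out NCF1. The members and lists were chosen with earlier results of these data known. The named genes were the 6 members, the genes at or beside their peaks, the 2 copies of NCF1, and of the other pathway genes the 5 with the most peaks, the 5 with the widest and up to 5 without a peak in list order. DUOX2, DUOXA1 and DUOXA2 were named after their values were seen, as were EIF3D, CACNG2, IFT27, PVALB and DYNLT3.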

Additional observations from a re-analysis of the deposited data

How the results depend on the processing

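Of 90 values recomputed under the alternatives, 67 stayed within 1.5 times the main count or, for a widest peak, at the same width, and 23 moved. The absence of peaks within 10 kb of CYBB and NCF4 held under every alternative run. Within 100 kb CYBB had 3 peaks, NCF4 had 2 and RAC2 had 17. With the widest 50% of peaks (550 bp or more) RAC1 had 5 peaks within 10 kb, CYBA 4 and NCF1 3, and within 50 kb RAC1 had 15 and CYBA 13. With the widest 25% (816 bp or more) RAC1 had 3 within 10 kb, CYBA 2, RAC2 2 and NCF1 0, so that no widest peak could be given for NCF1. Within 50 kb that setting left 12 at RAC1, 11 at CYBA, 3 at RAC2 and 0 at NCF1. With the gene body alone RAC1 had 4, CYBA 1 and NCF1 1, and with 5 kb RAC1 had 6, CYBA 4 and NCF1 2. Within 500 bp of a gene end 1 of 6 genes had a peak, beside 26.8% of all protein-coding genes. These changes follow from fewer peaks or other windows. No paired analysis was possible because each antibody had 1 library. Depth was unknown, so an absent peak may lie below the caller's threshold.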
